A study of Mus musculus with 4 samples.

Results

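Leydig cells, the androgen-producing cells between the seminiferous tubules, made up 152 of 22567 retained cells (0.674%) in single-cell RNA counts of the proximal mouse testis. They were selected on measured values: a barcode had 1000 to 4500 detected genes, at least 2 unique molecular identifiers (UMIs) of *Cyp11a1*, and at least 3 of the 5 genes *Cyp11a1*, *Cyp17a1*, *Hsd3b1*, *Star* and *Insl3* detected. The region holding the rete testis (RT) and the neighbouring seminiferous tubules was taken from C57BL/6 mice at postnatal day 14 (P14), and there were 2 control and 2 *Sox17*-cKO libraries, each from the pooled cells of 3 pups. The sample records give the genotype SF1Cre for controls and SF1Cre:Sox17flox/flox for *Sox17*-cKO, whereas the study's methods describe the controls as littermates with floxed alleles, so whether the controls carried the Cre is not settled. The Cre is driven by *Nr5a1* (SF1) sequences, and *Nr5a1* is itself a gene of Leydig cells. During dissociation the supernatant that held interstitial cells was discarded, so the number of Leydig cells is not their number in the tissue. Values for libraries are always given in the order control 1, control 2, *Sox17*-cKO 1 and *Sox17*-cKO 2.

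Leydig cells make testosterone from cholesterol. STAR brings cholesterol into the mitochondrion, CYP11A1 cleaves its side chain, and 3β-hydroxysteroid dehydrogenase (HSD3B) and CYP17A1 convert the product to androgens, while INSL3 is a peptide hormone that takes part in testis descent. In mice a fetal population is followed after birth by an adult one that arises from stromal progenitors, passes through an immature stage, and takes up *Hsd3b6* and *Hsd17b3*, and luteinizing hormone acts on these cells through its receptor LHCGR and cyclic AMP.

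The libraries differed in depth and in how many Leydig cells they held. All barcodes together numbered 46001, with 89969877 to 107203219 UMIs per library. The Leydig cells held 83331, 549468, 346736 and 896368 UMIs, so that 1 UMI was worth 12.0, 1.82, 2.88 and 1.12 counts per 1000000 UMIs (CPM), and a count of 0 allows up to 36.0, 5.46, 8.65 and 3.35 CPM (3 counts). Control 1, with 8 cells, was the shallowest by this measure. A Leydig cell had a median of 8450 to 14301 UMIs in the 4 libraries, against 5013.5 to 7848.5 in the other retained cells. None of the members shared a barcode with a member of another library, and 1 shared a barcode with another retained cell. The counts of control 1 and *Sox17*-cKO 1 were made with Cell Ranger 6.0.2 and those of control 2 and *Sox17*-cKO 2 with 6.1.2, so replicate number and software version cannot be told apart. *Sox17*, the deleted gene, had 1 UMI in all members, in control 2, so the members give no check of the genotype labels.

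All 5 genes of the rule were detected in 85 members, 4 in 47 and 3 in 20. Among the 11 members with exactly 2 *Cyp11a1* UMIs the median sum over the 5 genes was 35 UMIs, and in the 20 cells left out only because they had 1 *Cyp11a1* UMI it was 32.5. Among the 20 members with exactly 3 genes it was 25.5, and in the 8 cells left out because only 2 genes were detected it was 6.5. Over all members the median sum was 66 UMIs. A further 73 barcodes met the marker part of the rule but had over 4500 detected genes (2, 38, 14 and 19), and 2 had under 1000.

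The neighbouring genes *Hsd3b1* and *Hsd3b6* encode HSD3B enzymes and were unevenly spread over the Leydig cells, as described further on. They lie on the minus strand of chromosome 3 in GRCm38, *Hsd3b1* at chr3:98852194-98859794 and *Hsd3b6* at chr3:98805504-98814443, with *Hao2* beside them at chr3:98874521-98893239. Their RefSeq promoter windows (GRCm38.p6, 250 bases before to 50 after the start) are shown because the pair differed between cells, and those of *Insl3*, *Cst8* and *Lhcgr* because they hold a motif that SF1, the *Nr5a1* product, or other nuclear receptors can bind. Capitals mark CAAGGTC or AGGTCA on either strand. These motifs can overlap. The windows are chr3:98859745-98860044 on the minus strand, chr3:98814394-98814693 on the minus strand, chr8:71689002-71689301 and chr2:148798589-148798888 on the plus strand, and chr17:88791965-88792264 on the minus strand.
Hsd3b1: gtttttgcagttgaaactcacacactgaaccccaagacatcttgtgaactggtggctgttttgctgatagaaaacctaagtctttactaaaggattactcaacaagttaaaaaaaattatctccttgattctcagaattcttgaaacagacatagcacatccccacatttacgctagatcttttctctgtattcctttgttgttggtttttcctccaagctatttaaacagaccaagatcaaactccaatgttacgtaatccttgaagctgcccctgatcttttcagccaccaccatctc
Hsd3b6: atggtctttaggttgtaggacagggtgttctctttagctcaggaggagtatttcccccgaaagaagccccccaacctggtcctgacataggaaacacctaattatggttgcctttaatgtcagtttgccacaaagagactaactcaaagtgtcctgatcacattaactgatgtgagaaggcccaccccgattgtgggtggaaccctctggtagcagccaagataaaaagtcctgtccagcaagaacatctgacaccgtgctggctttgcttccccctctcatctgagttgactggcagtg
Insl3: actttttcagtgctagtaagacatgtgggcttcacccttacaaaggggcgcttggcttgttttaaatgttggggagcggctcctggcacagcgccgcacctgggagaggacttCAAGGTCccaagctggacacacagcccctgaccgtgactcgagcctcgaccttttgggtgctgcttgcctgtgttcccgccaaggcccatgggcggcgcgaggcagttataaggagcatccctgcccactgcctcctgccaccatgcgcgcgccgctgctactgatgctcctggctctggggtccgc
Cst8: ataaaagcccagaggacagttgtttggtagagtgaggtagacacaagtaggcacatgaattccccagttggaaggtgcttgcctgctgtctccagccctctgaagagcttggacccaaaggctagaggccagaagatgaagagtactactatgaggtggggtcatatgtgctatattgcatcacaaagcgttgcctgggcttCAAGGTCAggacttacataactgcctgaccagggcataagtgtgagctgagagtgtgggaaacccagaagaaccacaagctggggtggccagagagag
Lhcgr: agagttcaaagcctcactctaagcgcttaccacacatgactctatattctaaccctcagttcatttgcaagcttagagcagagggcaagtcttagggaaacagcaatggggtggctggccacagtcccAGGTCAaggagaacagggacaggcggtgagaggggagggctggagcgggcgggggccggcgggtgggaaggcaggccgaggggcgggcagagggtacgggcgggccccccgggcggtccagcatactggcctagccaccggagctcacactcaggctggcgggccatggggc

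Neither HSD3B window held either motif. CAAGGTC stood 137 bases before the start in *Insl3* and 48 before it in *Cst8*, and AGGTCA 46 before it in *Cst8* and 122 in *Lhcgr*. Of all 27025 genes with a window, 4.51% held CAAGGTC and 18.1% held AGGTCA, on either strand. Of the 16 cholesterol genes that had a window and were higher in Leydig than in stromal cells, as described further on, 1 held the first and 3 the second, shares close to those of all genes. Among the 10 genes with the smallest p in each direction, 9 higher and 6 lower ones had a window. CAAGGTC was in 1 of the 9 and 0 of the 6, and AGGTCA in 2 of the 9 and 2 of the 6. AGGTCA also stood in windows of *Cyp11a1*, *Akr1b7* and *Inha*, which are not shown. The last 300 bases of the *Hsd3b1* and *Hsd3b6* transcripts, from which the 3′ kit counts, were 66.7% identical, with no shared run over 17 bases and 0 of 270 windows of 31 bases in common.

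The 5 genes of the rule, whose values are a description because they chose the cells, differed from each other in how evenly they were spread over the libraries. *Cyp11a1* stood at 1548, 1400, 1405 and 2834 CPM and *Cyp17a1* at 1512, 1822, 1128 and 2655 CPM. *Hsd3b1* was at 2928, 1012, 1278 and 1039 CPM and *Star* at 1152, 357, 407 and 608 CPM, both highest in control 1. *Insl3* was at 264, 1569, 539 and 308 CPM. The high *Insl3* level of control 2 was shared by most of its cells, with a median of 20.5 UMIs per cell against 1, 3.5 and 3 in the others and 38 of 40 cells with a UMI. *Cyp17a1* was at 0 in 26 members, *Hsd3b1* in 25, *Star* in 10 and *Insl3* in 26. Cells with at least 2 UMIs each of 3 or more germ cell markers had median depths of 7030 to 9246 UMIs per cell. Of these, 0% to 1.95% had a UMI of *Cyp17a1* or *Insl3* and 4.62% to 5.76% had one of *Star*. Among all retained cells other than Leydig cells 5.04% to 6.37% had a UMI of *Star*, and the source of these UMIs was not tested.

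Although they were 0.674% of the retained cells and held 1.20% of their UMIs, the Leydig cells held most of the UMIs of several genes. Of all retained UMIs they held 92.3% for *Cyp11a1*, 89.8% for *Hsd3b1* and 74.9% for *Cyp17a1*, which the rule favours, but 36.1% for *Star* and 52.3% for *Insl3*. Outside the rule they held 83.2% of the *Hao2* UMIs, 81.6% of those of *Ly6d*, 70.8% of *Hsd3b6*, 65.9% of *Lhcgr*, 64.3% of *Kcnk3* and 61.8% of *Ren1*. *Hao2* encodes a peroxisomal hydroxyacid oxidase, *Kcnk3* a potassium leak channel and *Ren1* renin.

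**Figure D1:**
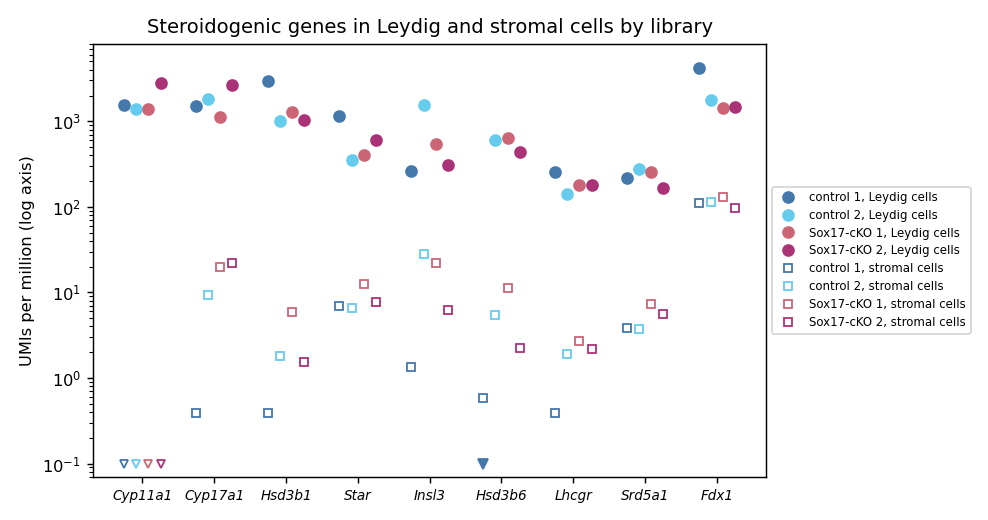
Counts per 1000000 UMIs (CPM, log axis) of 9 genes in each library, in Leydig cells (filled circles) and in stromal cells (open squares). Triangles at 0.1 mark a count of 0, which for *Cyp11a1* in stromal cells follows from their definition and for *Hsd3b6* is the 8 Leydig cells of control 1; in every other case the 4 Leydig values lie above the 4 stromal ones.

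The Leydig cells were next compared with stromal cells, the compartment from which adult Leydig cells arise. These were 5881 retained cells with 0 *Cyp11a1* UMIs, at least 1 *Pdgfra* UMI and at least 2 UMIs each of 2 or more of *Dcn*, *Col1a1* and *Col3a1*, and they included cells with muscle genes such as *Acta2* and *Myh11*. UMIs were summed per library and cell type and compared by the quasi-likelihood test of edgeR, with the library as a block and p-values adjusted by Benjamini-Hochberg over the 11090 genes tested. At an adjusted p under 0.05, 4518 genes (40.7%) differed, 1981 higher (17.9%) and 2537 lower (22.9%) in Leydig cells, and genes that defined either cell type were not tested. So many genes differed that a list is best read by its count against these shares. Leaving out the choosing genes does not remove the effect of the choice. A gene that goes with them, or passed the filter on low counts through 1 cell type alone, could hardly differ the other way. The cells of both types came from the same 4 libraries, and the block takes up differences in level between these. The spread is thus that of the difference between cell types from library to library, which may be partly technical.

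Of the 22 listed genes of steroid synthesis outside the rule, 14 were tested, and 11 of these were higher in Leydig cells and none lower. Their median log2 fold change was 2.13 against -0.08 over all genes. *Hsd3b6* was at 0, 599, 637 and 433 CPM in Leydig cells and 0.580, 5.49, 11.3 and 2.23 CPM in stromal cells (log2 fold change 6.70, SE 0.22), so it was undetected in the 8 cells of control 1 and well above the stromal level in the other libraries. *Srd5a1*, the 5α-reductase of immature Leydig cells, was at 216, 275, 254 and 164 CPM against 3.86, 3.78, 7.30 and 5.64 CPM (log2 fold change 5.46, SE 0.19), with no overlap. *Fdx1*, the ferredoxin that passes electrons to CYP11A1, was at 4200, 1751, 1430 and 1451 CPM and had a log2 fold change of 4.09. Its reductase *Fdxr* was higher by 3.55 on the log2 scale, and *Aldh1a1*, a retinaldehyde dehydrogenase, by 4.15. *Hsd17b3*, which makes testosterone in mature cells, had 0, 8, 0 and 6 UMIs in all members. *Cyp11b1*, an adrenal enzyme, had 0 UMIs.

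Cholesterol supply was higher as broadly: 24 of 28 genes were higher and none lower, with a median log2 fold change of 2.33. They covered the path from its first steps to uptake and storage. *Hmgcs1*, at the start of the synthesis, was at 768, 823, 770.0 and 778 CPM (log2 fold change 3.57, SE 0.17). The lipoprotein receptor *Scarb1* was at 480.0, 178, 167 and 268 CPM (log2 fold change 3.43, SE 0.17) and the esterifying enzyme *Soat1* at 1176, 573, 424 and 506 CPM (log2 fold change 3.38, SE 0.16). *Abca1*, a cholesterol exporter, was also higher (log2 fold change 3.20, SE 0.18). The 4 that did not pass were *Npc1*, *Npc2*, *Lipa* and *Lipe*, of lysosomal and lipase function, with log2 fold changes of -0.28, 0.21, 0.08 and 0.75. When members with markers of other cell types were left out, *Mvd*, *Mvk*, *Pmvk*, *Stard4* and *Apoe* no longer passed.

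The receptors *Lhcgr* and *Prlr* were higher in Leydig cells, while the glucocorticoid receptor *Nr3c1* was lower (log2 fold change -1.72, SE 0.21). The other genes of cyclic AMP signalling went both ways. *Lhcgr* was at 252, 140.1, 182 and 182 CPM against 0.386, 1.92, 2.71 and 2.16 CPM (log2 fold change 6.49, SE 0.23). *Prlr*, the prolactin receptor, was at 732, 815, 836 and 845 CPM in Leydig cells, a nearly constant level over the 4 libraries (log2 fold change 3.61, SE 0.18). Of the 19 tested genes of this signalling list 9 were higher and 7 lower, and the median log2 fold change was 0.07. Also higher were the protein kinase A subunit *Prkar2b* (log2 fold change 3.85, SE 0.17) and the phosphodiesterase *Pde8a* (log2 fold change 2.29, SE 0.29). Lower were *Pde4b* and *Pde4d*, other phosphodiesterases, and the nuclear receptors *Nr4a1* (log2 fold change -3.04, SE 0.22) and *Nr4a2* (log2 fold change -3.51, SE 0.28), which respond within minutes to stimulation. *Gnas*, the stimulatory G protein, stood at 684, 879, 943 and 747 CPM and was not told apart from stroma (log2 fold change 0.04, SE 0.16, edgeR adjusted p = 0.875).

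Among 15 transcription factors tested, 4 were higher and 9 lower. *Nr5a1*, which also drives the Cre here, was at 60.0, 89.2, 95.2 and 201 CPM against 14.9, 23.2, 23.8 and 42.8 CPM (log2 fold change 2.11, SE 0.18), with every Leydig value above every stromal one. The oestrogen receptor *Esr1* (log2 fold change 2.46, SE 0.18) and the oxysterol receptor *Nr1h3* (log2 fold change 2.78, SE 0.40) were higher, though the libraries of *Nr1h3* did not all move the same way. *Gata4* passed (log2 fold change 0.43) but no longer did under any alternative other than leaving out control 1, nor did *Gata6*, a lower one, without members with markers of another class. Lower were the progenitor factor *Tcf21* (log2 fold change -1.74, SE 0.18) and *Nr2f2* (log2 fold change -1.05, SE 0.17), and *Nr2f2* was still counted in the Leydig cells, at 144, 329, 248 and 298 CPM. Of the 11 tested genes linked to progenitors and stroma, 10 were lower and none higher, *Igf1* by 5.19 on the log2 scale. The stromal cells were chosen by stromal genes, so this direction was favoured by the choice and is a description.

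Lists linked to the adult and the fetal lineage both held genes higher than in stroma. Of 11 adult-linked genes, 6 passed the filter on low counts, and 5 of these were higher and none lower. A gene rare in stroma could pass that filter only through the Leydig cells, so the direction was partly set. Among the higher ones was *Vcam1*, an adhesion molecule, at 696, 923, 1061 and 684 CPM (log2 fold change 2.81, SE 0.18). Of 10 fetal-linked genes 7 were tested, of which 4 were higher and 3 lower. Higher were *Inha*, the inhibin α subunit, at 924, 789.9, 1030 and 998 CPM (log2 fold change 4.44, SE 0.18), *Gramd1b*, a sterol transporter, at 312, 136, 259.6 and 151 CPM (log2 fold change 3.61, SE 0.17), *Ren1* at 36.0, 238, 112 and 366 CPM (log2 fold change 6.08, SE 0.22) and *Nppc*, whose libraries did not all move the same way. Lower were *Thbs2*, with 2 UMIs in all members, *Dlk1* (log2 fold change -3.09, SE 0.25) and *Ncam1* (log2 fold change -3.21, SE 0.27). *Mc2r*, the corticotropin receptor, had 0 UMIs in all members.

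Most genes for handling peroxides and fatty acids were higher, at 15 of 18 with 1 lower for the antioxidant list and 12 of 12 for the lipid list. *Mgst1*, a membrane glutathione transferase, was at 1140, 1066, 1552 and 775 CPM (log2 fold change 3.66, SE 0.17), and *Ephx1*, an epoxide hydrolase, at 216, 295, 196 and 318 CPM (log2 fold change 2.81, SE 0.16). *Gstm1* and *Gstm2*, close relatives whose reads may be hard to separate, were higher by 1.76 and 1.88 on the log2 scale. *Gpx3*, a secreted peroxidase, was lower (log2 fold change -4.96, SE 0.32). *Fabp3*, a fatty acid carrier, was at 1752, 1367, 2526 and 2839 CPM (log2 fold change 2.75, SE 0.18), and *Dbi*, which binds acyl-CoA, at 1716, 2128, 2587 and 2464 CPM (log2 fold change 2.26, SE 0.17).

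Of 19 secreted factors tested, 4 were higher and 12 lower. Besides *Inha* and *Nppc*, the higher ones were *Kitl*, which encodes stem cell factor (log2 fold change 1.22, SE 0.16), and *Agt*, the renin substrate (log2 fold change 1.81, SE 0.21). *Igfbp5* (log2 fold change -7.90, SE 0.47), *Bmp4* (log2 fold change -4.67, SE 0.35) and *Tgfb2* (log2 fold change -3.89, SE 0.30) were among the lower ones. In the immediate early and heat shock list, 13 of 18 were lower and 1 higher, with *Egr1* at 2736, 863, 799 and 721 CPM against 3264, 2969, 2716 and 3033 CPM, its control 1 value overlapping the stromal range. Such genes respond to cell handling, and the part of dissociation in this difference was not tested.

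Genes chosen by the smallest p rather than by a list were led by *Cst8*, a cystatin, at 252, 233, 205 and 228 CPM against 0.580, 0.768, 3.13 and 1.18 CPM (log2 fold change 7.54, SE 0.23). *Hao2* was at 168, 157, 199 and 137 CPM (log2 fold change 7.73, SE 0.26) and *Kcnk3* at 312, 473, 378 and 928 CPM (log2 fold change 6.79, SE 0.21). The protease inhibitor *Serpina5* (log2 fold change 6.06, SE 0.19), the mitochondrial proteins *Efhd1* (log2 fold change 5.03, SE 0.17) and *Mgarp* (log2 fold change 5.54, SE 0.19), and *Ass1*, of arginine synthesis (log2 fold change 5.16, SE 0.19), followed, and *Mgarp* stood at 1404, 1820, 2405 and 1438 CPM. Besides *Igf1*, the lower ones were matrix genes, *Eln*, *Col4a4*, *Col6a3* and *Mfap4*, muscle genes, *Acta2*, *Tagln*, *Mylk* and *Myh11*, and *Fgl2*, a fibrinogen-like protein, with log2 fold changes from -6.15 to -4.98.

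**Figure D2:**
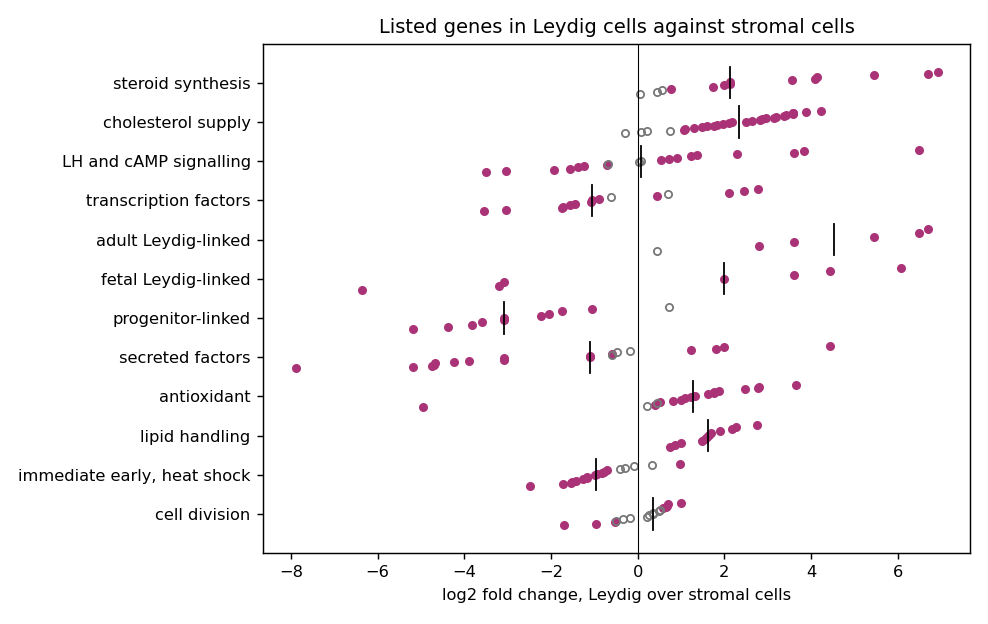
Fitted log2 fold change, Leydig over stromal cells, of each tested gene in 12 lists (1 point a gene, filled where the adjusted p was under 0.05; the black tick is the list's median). Medians range from -3.09 in the progenitor-linked list to 4.54 in the adult Leydig-linked list, against -0.08 over all 11090 genes. Leydig-linked genes rare in stroma were tested only if high in Leydig cells, and the stromal cells were chosen by stromal genes.

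Genes listed as markers of other cell types were detected in the members. Of the 152, 108 had at least 2 UMIs each of 3 or more markers of another class (2, 29, 20 and 57), by stromal genes in 98, Sertoli genes in 20, myoid genes in 6 and germ cell genes in 1. Summed over 10 genes, the stromal list stood at 792, 2426, 1756 and 3592 CPM in Leydig cells against 30062, 42847, 36913 and 37509 CPM in stromal cells. The Sertoli list stood at 1620, 988, 1759 and 1194 CPM, against 6294, 2957, 5718 and 4423 CPM in all other retained cells, and most of it came from *Clu*, at 1308, 748, 1099 and 877 CPM, and *Aard*. Of the 9 tested genes of the Sertoli list, 2 were higher in Leydig than in stromal cells and 3 lower, with a median log2 fold change of -0.75. *Clu* was itself higher (log2 fold change 3.03, SE 0.18), as was the sum of the list, at 853, 351, 1019 and 547 CPM in stromal cells. The source of these UMIs was not tested. The macrophage list summed to 0 to 16.7 CPM, the endothelial list to 0 to 41.3 CPM with 6 of its 10 genes at 0, and the RT list to 0 to 7.28 CPM with 7 of 10 at 0, among them *Krt8* and *Cdh1*. Doublets were not called, and stromal genes were not spread evenly over the members, as described further on. With the 108 left out, 3063 genes differed from stroma, 32.7% of them higher, compared with 43.8% of the 4518.

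Within the Leydig cells, those high in *Hsd3b6* tended to be low in *Hsd3b1*, though 46 of 54 cells with at least 2 *Hsd3b6* UMIs also had a UMI of *Hsd3b1*, a gene of the rule, at a median of 2 UMIs. In the cells with germ cell markers 0.0757% to 0.763% had one. *Hsd3b6* had at least 2 UMIs in 0, 16, 14 and 24 cells, 1 UMI in 0, 2, 1 and 7, and none in 8, 22, 13 and 45. Thinned to 5000 UMIs per cell, which left out 1 cell each of control 2 and *Sox17*-cKO 2, the share of cells with a UMI was 0%, 41.0%, 50.0% and 36.0%, and without thinning 0%, 45.0%, 53.6% and 40.8%. In the cells with germ cell markers it was at most 0.406%. In control 1, 0 of 8 cells allows a share of up to 37.5% by 3 counts. Across all 152 cells the rank correlation of *Hsd3b1* and *Hsd3b6* was -0.40, and it was -0.55, -0.66 and -0.22 in control 2, *Sox17*-cKO 1 and *Sox17*-cKO 2, a description over cells that share a library and a depth.

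**Figure D3:**
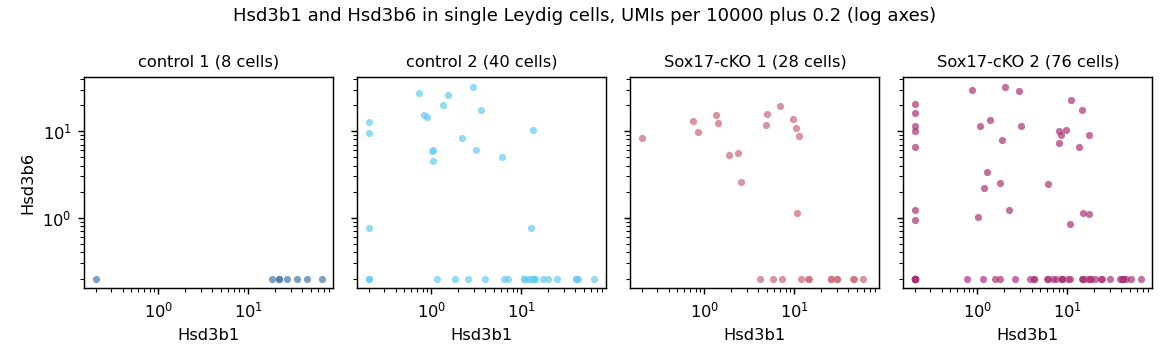
*Hsd3b1* (x axis) and *Hsd3b6* (y axis) in each Leydig cell, as UMIs per 10000 UMIs of the cell plus 0.2 on log axes, 1 panel a library; overlapping points at the lower and left edges are cells at 0. The 8 cells of control 1 lie along the lower edge, and in the other libraries cells high in *Hsd3b6* tend to be low in *Hsd3b1*.

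The genes that went with *Hsd3b6* were tested by summing, in each library, the cells with at least 2 UMIs and the cells with none, in the 3 libraries that held both, with the library as a block. *Hsd3b6* chose the cells and was not tested. Among the genes of the rule, not tested either, *Hsd3b1* was at 224, 434 and 465 CPM in *Hsd3b6*-positive cells and 1665, 2581 and 1454 CPM in *Hsd3b6*-zero cells of control 2, *Sox17*-cKO 1 and *Sox17*-cKO 2. *Cyp11a1* was at 846, 843 and 1274 CPM against 1899, 2296 and 4057 CPM, lower in all 3. *Insl3*, at 1621, 562 and 319 CPM against 1500, 518 and 307 CPM, was close between the subsets of each library, and *Cyp17a1*, at 1962, 1074 and 2168 CPM against 1817, 1155 and 3130 CPM, was higher in control 2 and lower in the other 2. *Gata6* had a UMI in 0 of the 54 *Hsd3b6*-positive cells and 18 of the 88 *Hsd3b6*-zero cells, a count made after values were seen and not tested.

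Of 3806 genes entered in the quasi-likelihood test of edgeR (adjusted by Benjamini-Hochberg), 15 (0.394%) differed, 5 higher (0.131%) and 10 lower (0.263%) in *Hsd3b6*-positive cells. *Inha* was at 345, 266 and 342 CPM against 1211, 2251 and 1510 CPM, lower in each library (-2.32, SE 0.20, edgeR adjusted p = 5.4e-05). Per cell the gap was smaller, with a median of 2.5 *Inha* UMIs in *Hsd3b6*-positive cells and 4 in all *Hsd3b6*-zero cells, and the rank correlation of the 2 genes over the 152 cells was -0.20, with -0.23, -0.59 and -0.03 in control 2, *Sox17*-cKO 1 and *Sox17*-cKO 2. The median mitochondrial share was 7.08% in *Hsd3b6*-positive and 8.98% in all *Hsd3b6*-zero cells, and *Inha* did not pass once barcodes of 10% or more were left out (-1.10, edgeR adjusted p = 0.509). *Kcnk3* was at 246, 118 and 426 CPM against 661, 728 and 1309 CPM (-1.80, SE 0.20, edgeR adjusted p = 7.1e-04), again lower in all 3. *Trf*, which encodes transferrin, was at 287, 379.5 and 80.7 CPM against 44.7, 75.0 and 27.8 CPM (2.21, SE 0.28, edgeR adjusted p = 0.00176). *Apoe*, the lipoprotein component, was at 2087, 2928 and 1726 CPM against 1053, 878 and 928 CPM (1.18, SE 0.17, edgeR adjusted p = 0.00736). For both, the 3 positive values lay above the 3 zero-group values, while for *Inha* and *Kcnk3* they lay below.

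Also higher were *Igfbp6* (1.13, SE 0.21, edgeR adjusted p = 0.0352), which binds insulin-like growth factors, *Id3* (1.43, SE 0.26, edgeR adjusted p = 0.0352), an inhibitor of helix-loop-helix factors, and *Ifi27l2a* (1.99, SE 0.38, edgeR adjusted p = 0.0449), an interferon-induced gene. Also lower were *Fabp3* (-1.13, SE 0.18, edgeR adjusted p = 0.0210), the interferon factor *Irf1* (-2.08, SE 0.35, edgeR adjusted p = 0.0262), the early response genes *Junb* (-1.17, SE 0.21, edgeR adjusted p = 0.0325) and *Btg2* (-1.09, SE 0.22, edgeR adjusted p = 0.0457), and *Adh1* (-1.33, SE 0.26, edgeR adjusted p = 0.0449), an alcohol dehydrogenase. *Gstm6* (-2.02, SE 0.39, edgeR adjusted p = 0.0454) and *Cst12* (-2.09, SE 0.41, edgeR adjusted p = 0.0457) were lower too, and both stand in the list of Sertoli markers. *Acta2* passed (-1.95, SE 0.35, edgeR adjusted p = 0.0325) although its libraries did not move together, with 98.5, 14.8 and 48.4 CPM against 358, 0 and 244 CPM.

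The lists gave few calls in this comparison. Of 17 immediate early and heat shock genes 2 were lower, and the median of the list was -0.65 against 0.01 over all genes. Steroid synthesis had 0 called of 11 tested, with 3 at an unadjusted p under 0.05 against 331 of all 3806 genes, and cholesterol supply had 1 higher of 21, which was *Apoe*. *Lhcgr*, *Srd5a1* and *Nr5a1* had log2 fold changes of 0.27, 0.33 and -0.01. *Gramd1b* (-1.29, SE 0.27, edgeR adjusted p = 0.0589), *Cst8* (-1.13, SE 0.23, edgeR adjusted p = 0.0547) and *Ren1* (1.39, SE 0.40, edgeR adjusted p = 0.227) had the same sign in all 3 libraries without passing. The count moved with each library left out, to 58 without *Sox17*-cKO 1, 48 without *Sox17*-cKO 2 and 1 without control 2, where only *Inha* passed. With barcodes of 10% or more mitochondrial UMIs left out 4 genes passed, 3 of them among the 15 (*Trf*, *Junb* and *Btg2*).

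**Figure D4:**
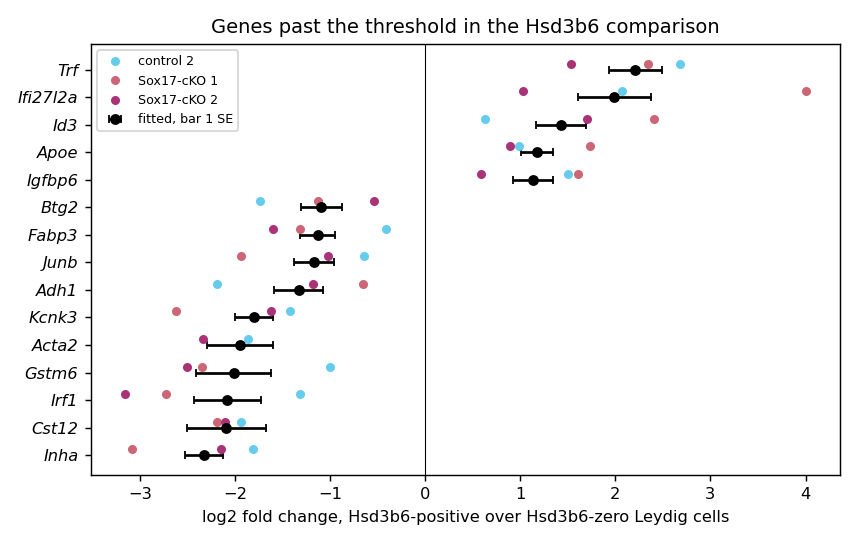
Fitted log2 fold change with 1 SE (black), *Hsd3b6*-positive over *Hsd3b6*-zero Leydig cells, of the 15 genes past the threshold, and the log2 ratio of CPM in each library (coloured). *Acta2* has no point for *Sox17*-cKO 1, where *Hsd3b6*-zero cells had 0 UMIs; *Trf* lies highest at 2.21 and *Inha* lowest at -2.32.

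A second way to describe the cells, chosen after the values were seen, was by *Inha*. In the 55 cells with at least 5 *Inha* UMIs (3, 11, 15 and 26), pooled levels were 2050 CPM for *Hsd3b1*, 3783 for *Cyp11a1* and 433 for *Insl3*. In the other 97 they were 617, 1063 and 892 CPM. *Gata6* had a UMI in 16 of the 55 and in 2 of the 97, while *Amh*, the hormone of immature Sertoli cells, had one in 1 of the 55 and 0 of the 97. *Hsd3b6* had a UMI in 17 of the 55 and 47 of the 97. Genes of the stromal list were detected in fewer of the 55. *Col1a2*, *Col3a1*, *Dcn* and *Pdgfra* had a UMI in 25, 48, 28 and 23 of them, and in 87, 97, 89 and 80 of the 97. Leaving out members with stromal markers may thus change the mix of these cells, which was not tested. The median mitochondrial share was 10.1% in the 55 and 7.57% in the 97, and its part in these values was not tested. The rank correlation of *Inha* with *Hsd3b1* over the 152 cells was 0.48 and that of *Cyp17a1* with *Gstm2* was -0.60, both without a test.

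The comparison of genotypes asks whether Leydig cells changed when *Sox17* was lost. Their share of retained cells was 0.130% (exact 95% interval 0.0563 to 0.257), 0.773% (0.553 to 1.05), 0.495% (0.329 to 0.715) and 1.36% (1.07 to 1.69), intervals that cover counting error only. The means were 0.452% in control and 0.926% in *Sox17*-cKO (n = 2 each), a difference of 0.474 percentage points, and control 2 lay above *Sox17*-cKO 1 (two-sided exact permutation test p = 0.667, where the smallest p that 2 against 2 can give is 0.333). With no upper limit on detected genes the difference was 0.326 and without members with markers of another class 0.0850 percentage points. In both genotypes the library made with Cell Ranger 6.1.2 had the higher share, and within each version the *Sox17*-cKO share was above the control share. The retained stromal cells, at 848, 2223, 699 and 2111, were likewise more numerous with version 6.1.2.

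Between genotypes no gene passed with all 4 libraries, the filter on low counts and no block on the replicate number, and 1 passed with the block. Of 5818 genes entered in the quasi-likelihood test of edgeR (adjusted by Benjamini-Hochberg), 0 (0%) were called, although 86 reached 0.05 before adjustment. With DESeq2 the counts were 0 and 28. The genes of the rule were not tested, because they chose the cells. Of 12 steroid synthesis genes tested, 7 lay above 0 and the median log2 fold change was 0.03. For 26 cholesterol genes, 18 above 0, it was 0.15, against 0.02 over all genes. Before adjustment 2 of the 12 reached 0.05, *Fdx1* (-1.07, SE 0.43) and *Por* (-1.36, SE 0.58), both lower in *Sox17*-cKO, and the genotypes overlapped for *Por*. So did 2 of the 26, *Fdps* (1.05, SE 0.48) and *Soat1* (-0.91, SE 0.43). Of all 5818 genes, 3027 lay above 0. *Lhcgr* (-0.03, SE 0.44), *Srd5a1* (-0.30, SE 0.42) and *Nr5a1* (0.89, SE 0.47) had adjusted p of 1 by edgeR. So did *Hsd3b6* (0.63, SE 0.71), whose *Sox17*-cKO values of 637 and 433 CPM lay on both sides of the 599 CPM of control 2.

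The genes nearest to the threshold had values that did not overlap between the genotypes, which follows from how they were picked. *Ly6d*, a surface protein, was at 12.0, 7.28, 95.2 and 61.4 CPM (log2 fold change 3.20, SE 0.65, edgeR adjusted p = 0.666), lower in both controls. With the replicate number as a block, which is also the Cell Ranger version, it was the 1 gene that passed (log2 fold change 2.99, edgeR adjusted p = 0.0323). *Fam46c* was at 24.0, 9.10, 46.1 and 61.4 CPM and *Svs5* at 12.0, 12.7, 40.4 and 46.9 CPM. *Cst9* was at 12.0, 9.10, 80.8 and 40.2 CPM, and it stands in the list of Sertoli markers, which summed to 1620, 988, 1759 and 1194 CPM. The 20 members with Sertoli markers were 0, 0, 12 and 8, and their part in the *Cst9* values was not tested. *Top2a*, *Cks2*, *Stmn1* and *Gmnn*, of dividing cells, were on the higher side, with *Top2a* at 24.0, 16.4, 34.6 and 105 CPM. *Sparcl1* and *Ctsh* made up the 10. In control 1 the values of *Ly6d*, *Svs5* and *Cst9* were 1 UMI each, worth 12.0 CPM. Those of *Fam46c* and *Top2a* there also lay below the 36.0 CPM that a count of 0 allows.

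On the lower side in *Sox17*-cKO were *Slc7a11*, a cystine transporter, at 144, 118, 28.8 and 56.9 CPM, *Cyp7a1*, the first enzyme of bile acid synthesis, at 24.0, 30.9, 2.88 and 4.46 CPM, and *Oca2*, a melanosome protein, at 84.0, 45.5, 14.4 and 21.2 CPM. *Myc* was at 132, 81.9, 40.4 and 26.8 CPM, *Icam1* at 48.0, 51.0, 5.77 and 15.6 CPM and *Fos* at 4032, 1489, 1188 and 1120 CPM, the control 1 value of *Fos* being the highest by far. *Mal*, *Trib1*, *Cxcl1* and *Neat1* completed the 10. The control 1 value of *Cyp7a1* lay below the 36.0 CPM that a count of 0 allows there, and its *Sox17*-cKO 1 value was 1 UMI. For *Icam1* the *Sox17*-cKO 1 value lay below the 8.65 CPM that a count of 0 allows in that library. None of the 20 passed (edgeR adjusted p of 0.666 for *Ly6d* and 1 for the others).

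The 10 cell division genes tested had a median log2 fold change of 0.72 with 8 above 0, and the 17 immediate early and heat shock genes -0.56 with 3 above 0. Of all 5818 genes, 3027 lay above 0. Marker lists of other cell types also had positive medians. These were 0.88 for germ cells (4 of 5 genes above 0), 0.74 for Sertoli cells (4 of 5), 0.53 for stroma (7 of 8) and 0.27 for myoid cells (3 of 4). *Mki67*, the proliferation marker, was at 0, 9.10, 11.5 and 63.6 CPM, so it was high in *Sox17*-cKO 2 alone. *Egr1* at 2736, 863, 799 and 721 CPM and *Junb* at 1980, 584, 611 and 445 CPM were highest in control 1, with control 2 and both *Sox17*-cKO libraries close together for *Egr1*. The control 1 values rested on 8 cells. Leaving out a library gave 3 calls without control 1, 10 without control 2, 21 without *Sox17*-cKO 1 and 6 without *Sox17*-cKO 2, where the lone library of a group is assumed to vary like the other group, and the fit without the filter on low counts called 2, *Ly6d* and *Nusap1*.

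**Figure D5:**
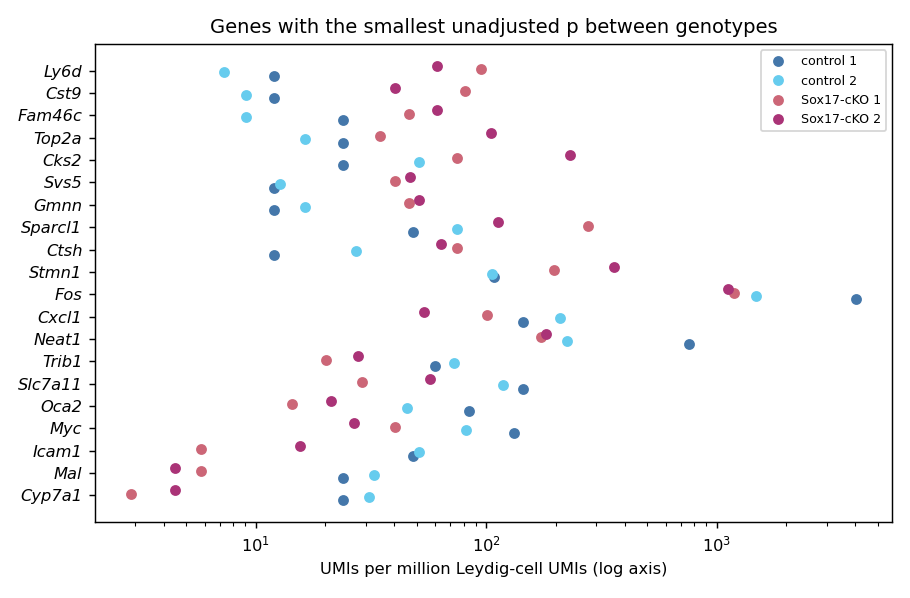
CPM (log axis) of the 20 genes with the smallest unadjusted p whose libraries agreed in direction, in the Leydig cells of each library (1 point a library). *Ly6d* lies between 7.28 and 12.0 in the controls and between 61.4 and 95.2 in *Sox17*-cKO, and none of the 20 passed the threshold. In control 1, 12.0 CPM is 1 UMI.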

How the data were processed

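The authors deposited whole UMI counts per gene and barcode for each library, made from 10x Genomics 3′ libraries with Cell Ranger 6.0.2 or 6.1.2 against mm10 (file headers and submitters' processing notes), filtered for barcodes holding cells and not normalized. The labels name version 3 of the kit and the study's methods version 3.1. Aggregated matrices were not used. Barcodes were kept whatever their mitochondrial share, unlike in the study, and no doublet caller was run.

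Members and gene lists were chosen with earlier results of these data known. Libraries, each of 3 pooled pups with 5000 cells targeted, were the replicates. The p-values measure the spread between libraries or, with the library as a block, that of the difference within a library from 1 library to another. Either may be technical. UMIs were summed over the cells of each library and compared with edgeR 4.0.16 (TMM, filterByExpr, quasi-likelihood test, Benjamini-Hochberg adjustment, threshold 0.05) in R 4.3.3. DESeq2 1.42.0 was an alternative, and scripts were tested on simulated data. There, the comparison of genotypes recovered 4 of 94 genes given a log2 change of 1 and 57 of 96 given 2. At a log2 change of 1 the stromal comparison recovered 67 of 100 and the *Hsd3b6* comparison 57 of 95. That no gene passed between genotypes thus leaves room for changes of this size. Tables and figures were made with pandas 2.3.3, matplotlib 3.10.9, SciPy 1.17.1 and NumPy 2.4.6 (Python 3.11.15). CPM are counts per 1000000 UMIs of the summed cells. Standard errors (SE) are those of the log2 fold change, worked back from it and the F statistic of the edgeR test. They are not the spread of a gene's values between libraries. Shares carry exact (Clopper-Pearson) 95% intervals, which cover counting error only. Coordinates came from GENCODE vM21 and promoter windows from RefSeq (GRCm38.p6).

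Genes named were those of the rule, list members with at least 20 UMIs in all Leydig cells, and up to 10 genes in each direction per comparison with the smallest unadjusted p whose libraries did not overlap or, in a blocked test, all agreed. *Hsd17b3*, *Thbs2*, *Mc2r*, *Cyp11b1*, *Cyp21a1*, *Amh*, *Sox17*, *Krt8* and *Cdh1*, with fewer UMIs, the cells high in *Inha*, the correlations and the shares of each gene's UMIs were chosen after values were seen. Germ cell and myoid lists were also compared with stromal cells, where 1 of 10 was higher and 8 lower, and 1 of 10 higher and 9 lower. The labels do not say that replicate numbers pair libraries. Some listed genes are not reported here.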

Additional observations from a re-analysis of the deposited data

How the results depend on the processing

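The difference in share between genotypes was 0.350 percentage points with at least 4 of 5 markers, 0.443 below 10% mitochondrial UMIs, 0.326 with no upper limit on genes and 0.0850 without members with markers of another class, and leaving out a library gave 0.0437 (without *Sox17*-cKO 2) to 0.904 (without *Sox17*-cKO 1). Between genotypes 0 genes passed with edgeR, with DESeq2, with at least 4 markers, below 10% mitochondrial UMIs and without members with markers of another class, 2 passed with no filter on low counts, and 3 (without control 1) to 21 (without *Sox17*-cKO 1) passed with a library left out. With the replicate number as a block 1 gene passed, *Ly6d* (log2 fold change 2.99, adjusted p = 0.0323). Libraries with the same number had a correlation of deviations of 0.163 over 5823 genes, which the labels do not explain. Against stromal cells 4518 genes passed, 3401 with DESeq2, 4848 with no filter, 4461 with at least 4 markers, 3876 below 10% mitochondrial UMIs, 3063 without members with markers of another class and 3420 to 4562 with a library left out. The median log2 fold change over all genes moved from -0.08 to -0.18 with DESeq2 and to -0.31 without members with markers of another class. Between *Hsd3b6*-positive and *Hsd3b6*-zero cells 15 passed, 15 with DESeq2 (8 shared), 80 with no filter, 16 with at least 4 markers, 4 below 10% mitochondrial UMIs, and 1 (without control 2) to 58 (without *Sox17*-cKO 1) with a library left out. That comparison could not be fitted without members with markers of another class, since subsets then held under 5 cells. Of 726 values of 81 named genes against stromal cells 696 stayed as before with regard to the threshold and 30 no longer passed. In the *Hsd3b6* comparison the 15 genes that passed gave 93 values, of which 65 still passed and 28 did not. Settings that gave no value for a gene are not counted, and with DESeq2 only 8 of the 15 genes entered. None changed sign while past the threshold. The causes were not tested. The comparison of genotypes rested on 2 libraries each, of which control 1 held 8 cells and 83331 UMIs.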

Other observations

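*Cyp21a1*, the 21-hydroxylase of the adrenal cortex, had 21 UMIs in 3 members, 19 of them in a single *Sox17*-cKO 1 cell of 12885 UMIs and 3949 genes. That cell held 68 UMIs of *Cyp11a1*, 41 of *Cyp17a1*, 58 of *Hsd3b1*, 3 of *Star* and 24 of *Insl3*. It held 0 of *Mc2r* and *Cyp11b1*, 2 further adrenal genes, and 2 UMIs of *Akr1b7*, which was looked up there as well.

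The 73 barcodes with over 4500 genes that met the marker part of the rule had median depths of 26090.5 to 28701.5 UMIs, against 8450 to 14301 in members. Of these, 2, 37, 11 and 17 had markers of another class, and *Hsd3b6* had 1, 704, 84 and 215 UMIs in them. The single UMI in control 1 was thus the only one of *Hsd3b6* in the cells of that library that met the markers.

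The 26 members with 0 *Cyp17a1* UMIs were 1, 6, 11 and 8 by library. *Hsd3b6* had a UMI in 57.7% of them and in 38.9% of the other 126, and the 2 groups had median depths of 11708 and 11804.5 UMIs.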
